A study of Mus musculus with 4 samples.

Results

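Spp1, Arg1, Trem2, Gpnmb, Fabp5, Fn1 and Cd9 are genes that are widely used together to name one state of tumor macrophages, after Spp1. They were found by symbol in the gene tables of 4 spatial transcriptomes of mouse tumors, and all 7 were among the 32285 genes listed. In those transcriptomes each value belongs to a Visium spot, a printed disc of barcoded capture oligos that covers a small region of tissue and can hold several cells of different types. A spot is therefore not a cell, and spots of 1 section are not replicates.

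Each section came from 1 subcutaneous tumor of MC38, a colon carcinoma line of C57BL/6 origin, and the tumors grew in F1 female mice of C57BL/6J crossed with a Collaborative Cross strain. The CC075F1 hosts (CC075/UncJ parent, n = 2 tumors) are the strain that the study classes as responding to PD-1 blockade, and the CC080F1 hosts (CC080/TauUncJ parent, n = 2 tumors) are its non-responding strain. All 4 mice were treated alike: they were 8-12 weeks old, received MC38 cells under the skin and 1 intraperitoneal dose of 200 µg of isotype antibody when the tumor measured 75-110 mm3, and the tumor was taken 48 h later. No tumor here received PD-1 antibody, and the same line was given to both crosses. Per the study's methods the permeabilization time was set for each tissue block, so block, library and strain cannot be told apart with 2 tumors per strain.

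Spp1 encodes osteopontin, a secreted matrix glycoprotein that binds CD44 and integrins. Arg1 is the arginase that cleaves arginine to ornithine and urea, and the depletion of arginine by it is known to restrain T cells. Trem2 is a lipid-sensing receptor that signals through Tyrobp, Gpnmb is a transmembrane glycoprotein of lysosome-rich phagocytes, Fabp5 is a fatty acid carrier, Fn1 is fibronectin and Cd9 is a tetraspanin. Spp1, Fabp5, Fn1 and Cd9 are also made by tumor cells, fibroblasts or endothelium, so a transcript counted in a spot is not assigned to a macrophage. Oxygen shortage induces a set of genes through the HIF factors, and in many tumors macrophages of the Spp1 state are described near such regions.

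The sections held 2710 and 3276 spots in CC075F1, against 2787 and 3174 in CC080F1, with 82594649 to 146460975 unique molecular identifiers (UMIs, 1 per captured transcript) each and a median of 31139 to 41740 UMIs per spot. One CC075F1 replicate 1 spot held 0 UMIs and was left out of measures per spot. CC075F1 replicate 2 had 24 spots in which markers of muscle, skin and fat took at least 1% of UMIs, and the other sections had 0. Of the markers set for MC38 cells, the epithelial genes Krt8, Krt18, Krt19, Epcam and Cdh1 were near 0, at most 1.62 CPM (the gene's share of all UMIs of the section, scaled as usual to counts-per-million) in each section, while Shisal2b lay between 123 and 267 CPM. The macrophage list (11 genes, among them Csf1r, Adgre1, Lyz2 and the C1q genes) summed to 4977 and 4430 CPM in CC075F1 and to 2974 and 3513 CPM in CC080F1.

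The genes lie on 6 chromosomes of GRCm38. Spp1 is at chr5:104435118-104441050 on the plus strand, Arg1 at chr10:24915221-24927484 on the minus strand, Trem2 at chr17:48346401-48354147 on the plus strand and Fabp5 at chr3:10012548-10016607 on the plus strand. Fn1 is at chr1:71585520-71653200 on the minus strand. Gpnmb, at chr6:49036546-49070929 on the plus strand, and Cd9, at chr6:125460266-125494791 on the minus strand, share a chromosome without being neighbors. All are annotated as protein-coding.

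RefSeq start-site sequences on GRCm38.p6 were matched for 4 of the 7 genes, Spp1, Trem2, Gpnmb and Cd9, and those of the others were not used here. The 250 bases before the start are shown for Spp1 and Gpnmb, both called higher in hypoxic spots (Spp1 in 3 of the 4 sections), and for Trem2, whose difference there was small. Of 2 Spp1 windows the one nearest the annotated start is shown. Capitals mark GAGGAA, the core bound by the myeloid factor PU.1, AACCACA, a RUNX-type element, and GCGTG, which with ACGTG forms the core bound by HIF. Both strands were searched, no marked matches overlap, and the PU.1 and RUNX letters were chosen after these sequences had been seen.
Spp1, chr5:104434861-104435110, plus strand: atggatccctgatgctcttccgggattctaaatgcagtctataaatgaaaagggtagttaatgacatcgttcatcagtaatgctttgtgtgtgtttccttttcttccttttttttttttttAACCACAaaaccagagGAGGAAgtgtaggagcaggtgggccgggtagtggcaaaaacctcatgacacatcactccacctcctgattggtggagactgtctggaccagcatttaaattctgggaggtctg
Gpnmb, chr6:49036268-49036517, plus strand: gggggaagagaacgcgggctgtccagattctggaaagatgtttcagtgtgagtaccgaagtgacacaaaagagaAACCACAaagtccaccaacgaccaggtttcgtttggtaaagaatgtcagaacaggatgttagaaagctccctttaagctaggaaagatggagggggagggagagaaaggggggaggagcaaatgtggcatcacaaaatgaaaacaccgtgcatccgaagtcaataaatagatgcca
Trem2, chr17:48346151-48346400, plus strand: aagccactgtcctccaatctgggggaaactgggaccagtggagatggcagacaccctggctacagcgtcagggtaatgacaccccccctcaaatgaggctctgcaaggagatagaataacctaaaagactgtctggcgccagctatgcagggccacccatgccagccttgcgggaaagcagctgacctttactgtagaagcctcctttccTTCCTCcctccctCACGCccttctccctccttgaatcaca

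The Spp1 stretch held AACCACA starting 129 bases and GAGGAA starting 113 bases before the start site, and Gpnmb held AACCACA starting 176 bases before it. Trem2 held GAGGAA and GCGTG, both on the opposite strand, in its last 40 bases. Neither HIF core was among the letters of the Spp1 or Gpnmb stretch, and the Cd9 stretch, which is not printed, held 0 matches to the 4 motifs. Among 32851 windows of the same length in the RefSeq table, 4.40% held AACCACA, 23.3% GAGGAA, 16.6% ACGTG and 28.2% GCGTG. A match describes letters in this window and is not a binding site.

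The first question was whether the tumors of the 2 strains differed in these genes. Arg1, Fn1 and Gpnmb were lower in both CC075F1 sections than in both CC080F1 sections, Cd9 was higher in both, and Spp1, Trem2 and Fabp5 overlapped. None of the 7 differences passed the test across all genes. The largest was Arg1, at 17.2 ± 5.29 CPM (SD, n = 2) in CC075F1 and 45.0 ± 12.4 CPM in CC080F1. In a spot as in bulk tissue, fewer cells of a type and less RNA per cell cannot be told apart.

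Arg1 had 20.9 and 13.4 CPM in CC075F1 replicates 1 and 2 and 36.3 and 53.7 CPM in CC080F1. Fibronectin followed the same order, with 336.7 and 267 CPM against 461.5 and 719.6 CPM. For both genes the CC080F1 sections lay apart from each other as well as above CC075F1. Gpnmb had 27.0 and 30.1 CPM against 33.0 and 39.5 CPM. The tetraspanin Cd9 had 135.6 and 148.2 CPM in CC075F1 and 125.6 and 118.7 CPM in CC080F1, a small gap in the opposite direction. The strains did not overlap in 4 of the 7 genes, beside 36.9% of the 15572 genes tested.

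Osteopontin varied within strains as much as between them. Spp1 had 126.7 and 204.1 CPM in CC075F1 and 162.2 and 411.1 CPM in CC080F1, so that CC080F1 replicate 2 alone stood high and CC080F1 replicate 1 lay between the CC075F1 sections. Trem2 was the most even of the 7, at 58.6 and 56.6 CPM against 59.1 and 57.1 CPM. Fabp5 had 90.4 and 110.2 CPM against 141 and 93.7 CPM, with the highest value in CC080F1 replicate 1, where Spp1 was not high.

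**Figure D1:**
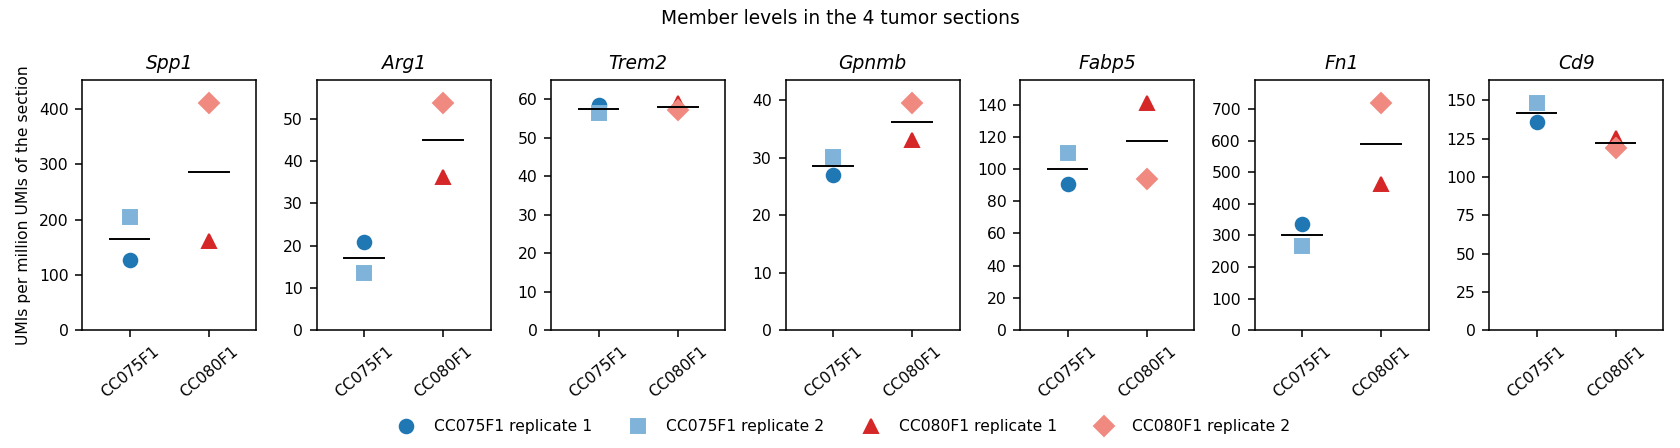
Level of each gene in CPM (vertical axes, each from 0) for the 2 CC075F1 and 2 CC080F1 tumors (points, 1 per section), with the mean of each strain as a bar. Arg1, Fn1 and Gpnmb lie higher in both CC080F1 sections, Trem2 stays between 56.6 and 59.1, and a single CC080F1 section, at 411, sets the Spp1 mean.

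In edgeR's quasi-likelihood test with Benjamini-Hochberg adjustment over 15572 genes, 0 of the 7 genes passed, beside 0.0899% of all genes (14), with 846 genes at an unadjusted p under 0.05. With TMM scaling Arg1 alone of the 7 had such a p, at 0.00296, with a log2 difference of CC075F1 minus CC080F1 of -1.12 (SE 0.25) and an adjusted p of 0.358. The log2 differences were -0.68 (SE 0.34) for Fn1 and 0.57 (SE 0.27) for Cd9, with an adjusted p of 0.830 each, and -0.42 (SE 0.55) for Spp1, with 0.873. The fit rescales libraries by trimmed means (TMM), and with library size alone the median of all genes moved from -0.02 to -0.31, so Gpnmb was at 0.00 with TMM and -0.35 without. On that scale Fn1 was at -0.97 (unadjusted p = 0.00217, adjusted p = 0.283), Spp1 at -0.79 (unadjusted p = 0.0486, adjusted p = 0.776) and Cd9 at 0.22, and none of the 7 passed. Arg1 passed by DESeq2's Wald test (-1.11, adjusted p = 0.0264) and with no filter on low counts (-1.13, adjusted p = 0.000213). Without any one section the Arg1 difference ranged from -1.43 to -0.73. The Spp1 difference changed sign, from -1.16 without CC075F1 replicate 2 to 0.50 without CC080F1 replicate 2.

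Lists of related genes gave the setting of these values. Of the 11 macrophage genes 0 passed between strains, with a median log2 difference of 0.82, and of 7 genes of arginine metabolism 0 passed, with a median of 0.28, beside a median of -0.02 over all genes. Within the second list Ass1, which rebuilds arginine from citrulline, and Slc7a2, an arginine transporter, had the largest differences, 1.73 (SE 0.48, adjusted p = 0.542) and 1.52 (SE 0.34, adjusted p = 0.349), opposite in sign to Arg1. Osteopontin receptors (8 genes, median -0.08) and lipid-handling partners of Trem2 (12 genes, median 0.22) also had 0 that passed. The fibroblast list, which bears on Fn1, summed to 1865 and 1125 CPM in CC075F1 and 2802 and 2600 CPM in CC080F1. Of its 8 genes 0 passed and 4 had a positive difference, with a median of -0.12. Col3a1 had 1141 and 333.9 CPM in CC075F1 against 1992 and 1409 CPM in CC080F1. Col1a1 overlapped, at 45.0 and 119.2 CPM against 57.7 and 111 CPM. The part of these genes in the Fn1 difference was not tested.

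Within sections the genes were spread unevenly, and Arg1 most of all. The 10% of spots richest in Arg1 held 58.7% and 53.8% of its UMIs in CC075F1, against 56.3% and 45.9% in CC080F1. Such a share also rises where a gene has few UMIs per spot, and Arg1 had 0.60 to 1.91. Gpnmb had shares of 38.4% and 34.4% in CC075F1, with more UMIs per spot than Arg1 (0.82 and 1.34). In CC080F1 it had 32.8% and 33.5%, with fewer (1.11 and 1.40). Arg1 was seen in 33.0% and 34.1% of CC075F1 spots and in 48.7% and 64.0% of CC080F1 spots. The exact (Clopper-Pearson) 95% interval was 31.2-34.8% for the lowest and 62.3-65.6% for the highest of these shares, and covers counting error only. After each spot was thinned to 10000 UMIs, leaving out shallower spots, the shares were 15.2% and 11.3% against 23.2% and 34.7%. Transcripts can spread under the tissue during capture, and how much of these shares that makes up was not tested.

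Moran's I, which is near 0 for a random scatter of spots and rises as neighboring spots resemble each other, was 0.314 and 0.238 for Arg1 in CC075F1, against 0.282 and 0.333 in CC080F1. Fn1 was patchy to a like degree in each section, between 0.255 and 0.278. Spp1 ranged widely, from 0.139 in CC075F1 replicate 1 and 0.194 in CC080F1 replicate 1 to 0.326 and 0.369 in the second replicates. Trem2 stayed low throughout, between 0.0501 and 0.105, and Gpnmb, Fabp5 and Cd9 lay between 0.053 and 0.219. These values are descriptions of single sections. Few counts per spot can lower them, and by how much was not tested.

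**Figure D2:**
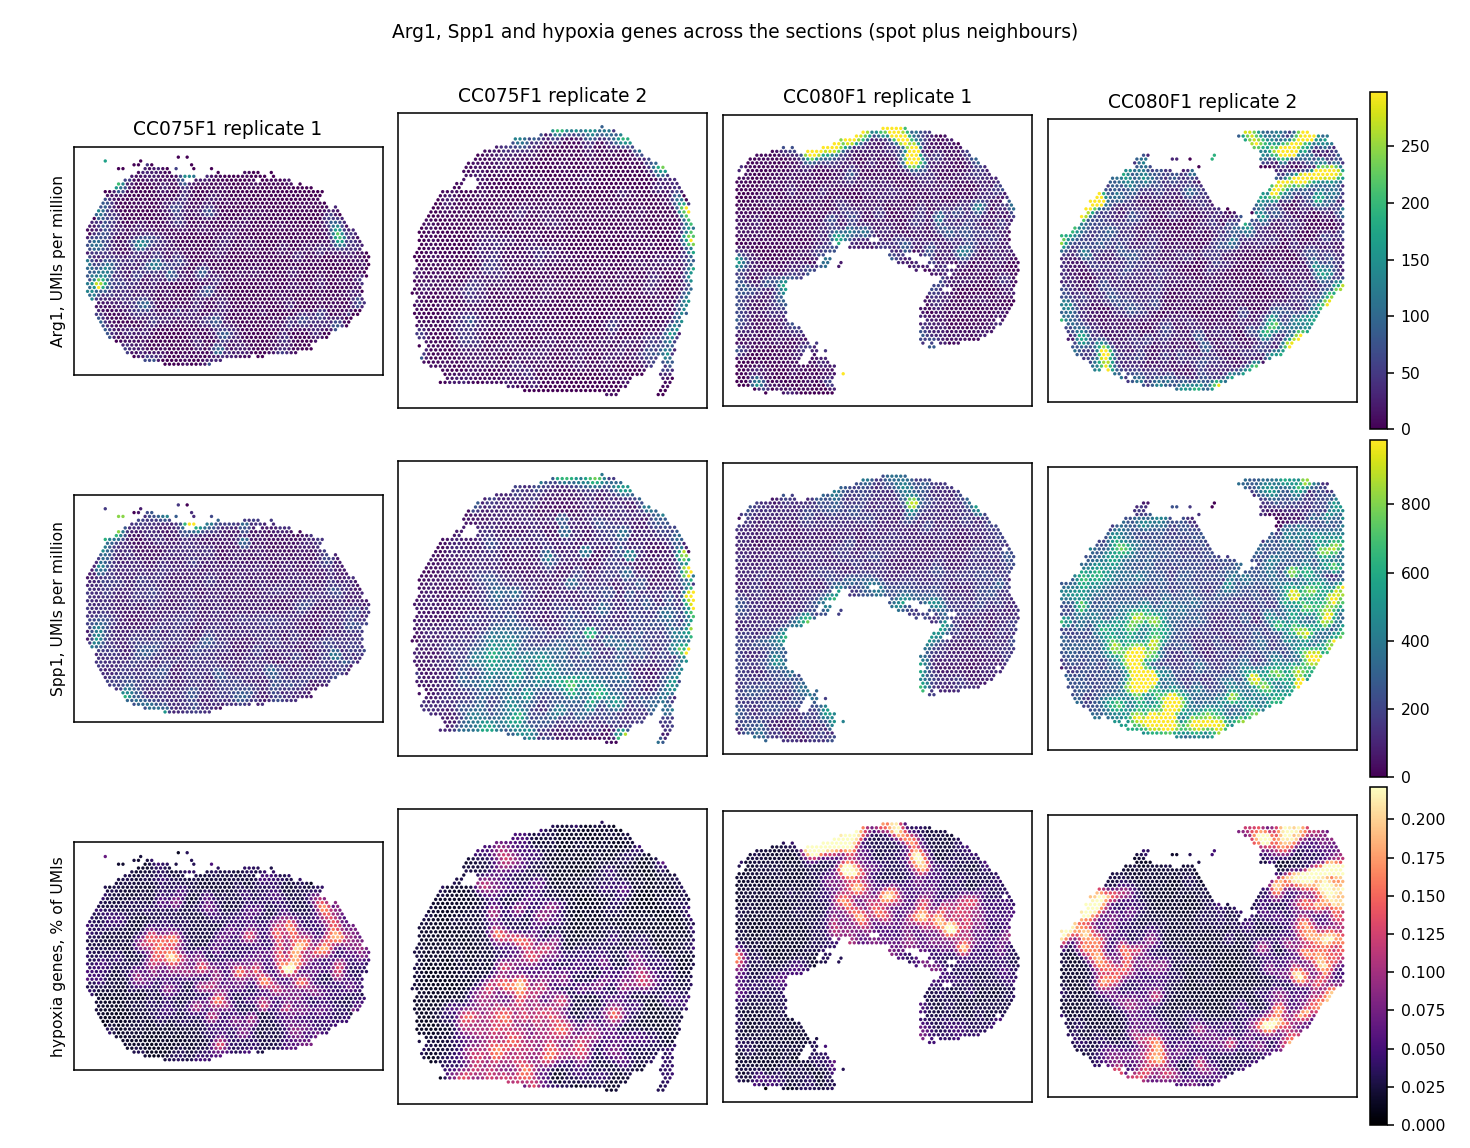
Maps of the 4 sections (columns) showing, for each spot pooled with its neighbors, Arg1 and Spp1 in CPM and the hypoxia genes as a percent of UMIs (rows, color scales shared across a row, with 0 at the dark end and the brightest 1% of spots at the top color). Arg1 forms bands and foci near outer borders, and bright Spp1 fields in the second replicates overlap the hypoxic fields, whereas in CC075F1 replicate 1 the hypoxic fields hold little Spp1.

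Hypoxic spots were compared with the rest of each section. Spots were ordered by the share of their UMIs that came from 10 hypoxia genes (among them Slc2a1, Vegfa, Car9, Bnip3 and Pdk1, none of which is among the 7), divided into 3 classes of equal size, and the upper class was set against the lower class of the same section. Of the 7 genes 6 were higher in the upper class, Arg1 by the most, and Cd9 was the exception. The upper classes held 0.104% to 0.141% hypoxia-gene UMIs and the lower classes 0.0158% to 0.0213%. Over the same spots the summed macrophage list, in CPM without TMM scaling, was lower in the upper class of each section. The drop was small in CC075F1 replicate 1 (ratio 0.916) and CC080F1 replicate 1 (ratio 0.98). With library size alone the median log2 difference of all genes was also below 0, at -0.17.

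Arg1 rose from 17.0 to 26.2 CPM and from 10.6 to 17.4 CPM in the CC075F1 sections, and from 14.8 to 71.9 CPM and from 28.7 to 94.3 CPM in the CC080F1 sections. The upper-to-lower ratios were thus 1.54 and 1.64 in CC075F1, against 4.86 and 3.29 in CC080F1, and the strains did not overlap. They did not overlap for Cd9 either, and the share of all genes without overlap in this ratio was not counted. In the lower class the Arg1 values of the strains overlapped. Much of the rise lay in the last of 10 equal bins of spots, where Arg1 reached 139.4 CPM in CC080F1 replicate 1 after 46.6 CPM in the bin before it, and 39.4 CPM after 23.4 CPM in CC075F1 replicate 1.

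Spp1 behaved differently from section to section. It rose from 124.9 to 290.4 CPM in CC075F1 replicate 2 and from 252.1 to 572 CPM in CC080F1 replicate 2, and by less, from 137.7 to 192 CPM, in CC080F1 replicate 1. In CC075F1 replicate 1 it went from 133.7 to 117.2 CPM, a ratio of 0.877, and declined across the bins from 142.8 to 112.5 CPM.

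Gpnmb rose in each of the 4 sections, with ratios of 1.30 and 1.71 in CC075F1, against 1.37 and 1.66 in CC080F1. Fibronectin rose in each as well, by 1.74 and 1.15 against 1.28 and 1.38. Fabp5 had ratios of 1.67 and 1.04 in CC075F1, against 1.66 and 1.37 in CC080F1, with its steepest part in the last bin, 251.6 CPM in CC080F1 replicate 1 against 111.1 CPM in the first bin. Trem2 was nearly level, with ratios of 1.12, 0.824, 1.11 and 1.02, and went down across the bins in CC075F1 replicate 2, from 66.4 to 49.9 CPM. For Cd9 the ratios were 0.764, 0.954, 1.00 and 1.09.

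**Figure D3:**
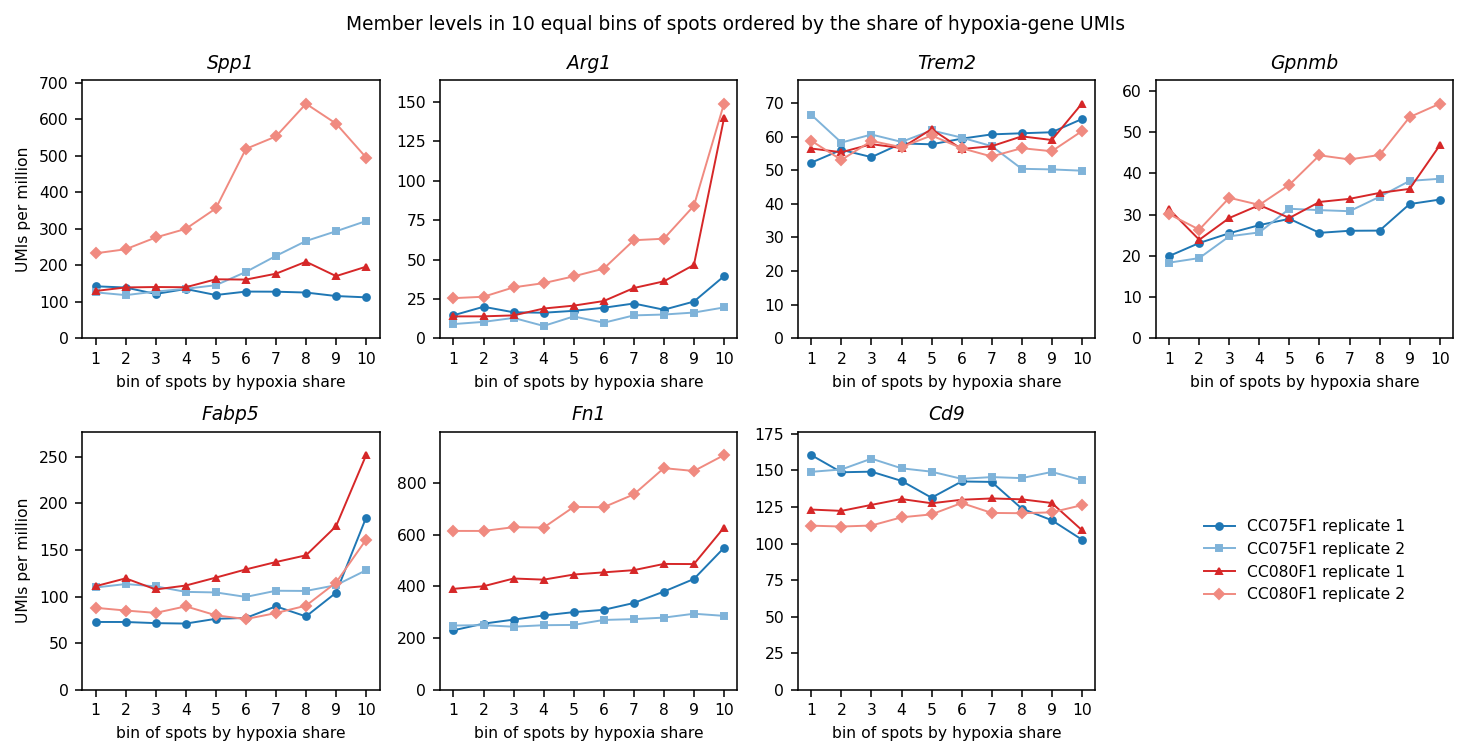
Level of each gene (CPM, axes from 0) in 10 bins of equal size of the spots of a section, ordered from the lowest (1) to the highest (10) share of hypoxia-gene UMIs, 1 line per section. Arg1 climbs to 139 and 149 in the last bin of the CC080F1 sections, Spp1 climbs in 3 sections and declines in CC075F1 replicate 1, and Trem2 and Cd9 show no shared course.

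In the edgeR fit with section as a block, 6 of 7 genes passed, all higher in the upper class, beside 34.0% of 13757 genes called in either direction and 17.1% called higher. The median log2 difference of the 7 was 0.66, beside 0.00 over all genes. The log2 differences were 1.54 (SE 0.23, adjusted p = 0.00217) for Arg1 and 0.86 (SE 0.24, adjusted p = 0.0253) for Spp1. Gpnmb had 0.76 (SE 0.10, adjusted p = 0.00153), Fabp5 0.66 (SE 0.07, adjusted p = 0.000602) and Fn1 0.63 (SE 0.08, adjusted p = 0.000918). Trem2 passed at 0.18 (SE 0.05, adjusted p = 0.0206), and Cd9 did not at 0.09 (SE 0.09, adjusted p = 0.482). The calls for Arg1, Gpnmb, Fabp5 and Fn1 held in each of 10 alternative fits, among them interior spots alone and hypoxia read from the neighboring spots only.

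The calls for Spp1 and Trem2 were less firm. Spp1 missed the threshold without CC075F1 replicate 2 (0.63, adjusted p = 0.0800) and without CC080F1 replicate 2 (0.67, adjusted p = 0.144). Trem2 missed it with library size alone (0.01, adjusted p = 0.918), with the hypoxia of neighbors (adjusted p = 0.0586) and without CC075F1 replicate 1 (adjusted p = 0.0681), CC080F1 replicate 1 (0.0598) or CC080F1 replicate 2 (0.0916). Cd9 passed only without CC075F1 replicate 1, at 0.23 (adjusted p = 0.0397), and turned to -0.08 with library size alone. Library size alone moved the median of all genes to -0.17 from 0.00 and the split of calls from 2350 higher and 2334 lower to 912 higher and 4613 lower, with 5 of the 7 genes called, all higher.

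Upper and lower classes also differed in depth and place. Median UMIs per spot were 32220 and 53318 in the upper classes of CC075F1 against 30799 and 34441 in the lower, and 33546 and 28891 against 35742 and 39122 in CC080F1. The edge of the tissue took 14.6% and 11.7% of upper-class spots in CC075F1, against 31.5% and 23.8% in CC080F1. With interior spots alone the log2 differences were 1.56 for Arg1, 0.90 for Spp1 and 0.79 for Gpnmb, each about as large as with all spots.

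Lists of genes tied to these 7 by function held calls in both directions, at shares to be read against the 34.0% of all genes called and 17.1% called higher in hypoxic spots. Of the 11 macrophage genes 1 was higher (Itgam, an integrin chain of myeloid cells) and 4 were lower (Aif1, Fcgr1, Csf1r and C1qa), with a list median of -0.20. Their summed CPM, which has no TMM scaling, was lower in the upper class of each section (4697 against 5125 and 3272 against 5488 CPM in CC075F1, 2900 against 2960 and 2968 against 3843 CPM in CC080F1). Aif1 had -0.62 (SE 0.10, adjusted p = 0.00252) and passed in all 10 alternatives, whereas Itgam passed in 6, Csf1r in 5 and C1qa in 7. In the list of arginine metabolism 4 of 7 were higher and 0 lower. Nos2, which makes nitric oxide from arginine, rose by 2.16 (SE 0.15, adjusted p = 5.99e-05), and Arg2, the mitochondrial arginase, by 2.23 (SE 0.56, adjusted p = 0.0169). Slc7a1, an arginine transporter, rose by 0.42 (SE 0.05, adjusted p = 0.000803). Nos2 and Slc7a1 passed in all 10 alternatives. Arg2 was tested in only 6 of them and passed in each. Asl, the remaining gene called, passed in 4 of 10, with log2 differences from 0.04 to 0.27.

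Among 12 lipid-handling partners of Trem2 and Gpnmb 4 were higher and 2 lower. Lgals3, the lectin galectin-3, rose by 1.35 (SE 0.08, adjusted p = 4.00e-05), and the lysosomal genes Ctsl, Ctsd and Cd63 rose by 0.37, 0.24 and 0.23. Ctsl passed in 9 of 10 alternatives and Ctsd and Cd63 in 7, with Ctsd as low as 0.07 (adjusted p = 0.542) and Cd63 as low as 0.06 (adjusted p = 0.325). Lpl, a triglyceride lipase, had -1.55 (SE 0.15, adjusted p = 0.000328) and Cd36, a fatty acid scavenger receptor, -0.54 (SE 0.07, adjusted p = 0.00104). Of 8 osteopontin receptors 2 were higher, Cd44 by 0.19 and Itgav by 0.18, and 2 lower, Itga4 at -0.91 and Itga9 at -0.29. Of these 4 only Itga4 passed in all 10 alternatives. Cxcl9, the interferon-induced chemokine often set against Spp1, had -1.30 (SE 0.17, adjusted p = 0.00139), while Cd274, which encodes PD-L1, rose by 0.65 (SE 0.08, adjusted p = 0.00104). Both belong to a list of 6 interferon-related macrophage genes. Of these 5 were lower and only Cd274 was higher, with a list median of -0.52.

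The strains were then compared in how far they differed between hypoxic and other spots. The strain-by-hypoxia term passed for 0 of the 7 genes, beside 0.0145% of 13757 genes. Arg1 had the smallest p of the 7, with a term of -1.23 (SE 0.18, adjusted p = 0.142), a smaller upper-to-lower difference in CC075F1. The Arg1 term ranged from -1.46 to -1.03 without any one section, where 1 strain is left with 1 tumor. For the other genes the terms lay between -0.22 (Spp1) and 0.17 (Fn1), with SEs up to 0.49, so a difference as large as that of Arg1 could not be told from 0 for Spp1.

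Distance from the tissue border was taken in spot steps, and spots within 3 steps were called the edge. Arg1 was more abundant at the edge in each section, although it missed the threshold. Cd9 and Spp1 were nowhere lower at the edge, by small and uneven margins, and the remaining 4 genes were higher in some sections and lower in others. Arg1 had 23.1 CPM at the edge against 20.6 CPM in the interior of CC075F1 replicate 1 and 29.5 against 11.0 CPM in replicate 2. In CC080F1 it had 57.9 against 27.4 CPM and 131 against 39.2 CPM. Edge and interior thus differed little in CC075F1 replicate 1 and most in CC080F1 replicate 2, from 26.9 CPM at 13 or more steps to 186.5 CPM in the outermost spots.

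Spp1 was higher at the edge in CC075F1 replicate 1 (170.5 against 119.8 CPM) and CC080F1 replicate 1 (233.7 against 132.9 CPM), nearly equal in CC075F1 replicate 2 (204.5 against 204.1 CPM) and little higher in CC080F1 replicate 2 (453.6 against 403.1 CPM). The sections with a clear Spp1 border, both first replicates, were those with the smaller upper-to-lower hypoxia ratios of Spp1. In CC075F1 replicate 2 Spp1 was high both in the outermost spots, at 222.3 CPM, and at 13 or more steps, at 240.4 CPM, with 150 CPM at 4-5 steps. Edge-to-interior ratios of the others ranged from 0.808 to 1.30 for Fn1 and from 0.823 to 1.19 for Gpnmb. For Cd9 they were 1.27 and 1.01 in CC075F1, against 1.09 and 1.14 in CC080F1.

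**Figure D4:**
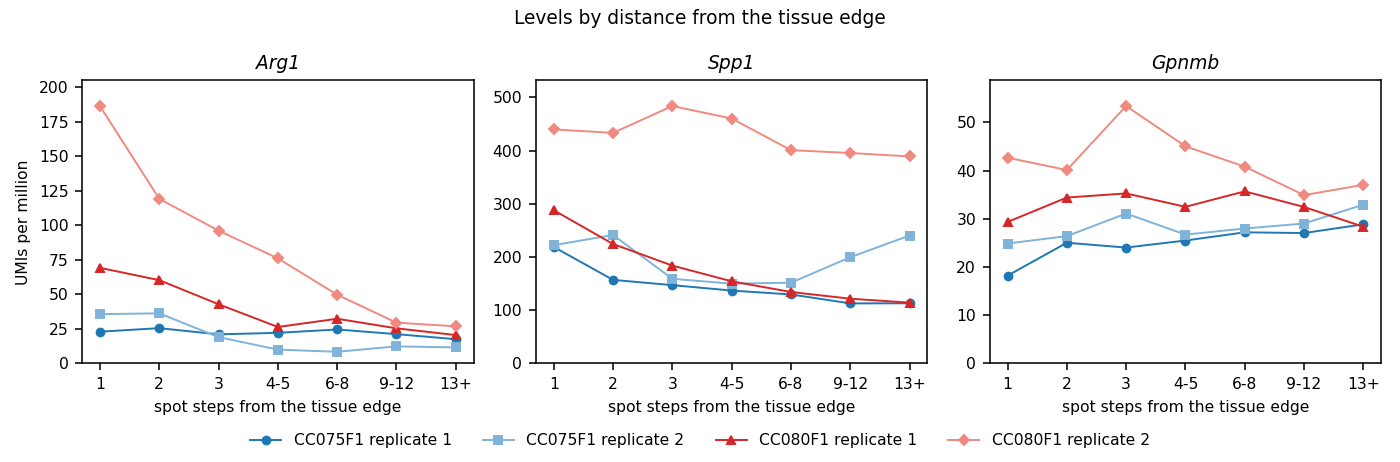
Arg1, Spp1 and Gpnmb (CPM, axes from 0) against distance from the tissue edge in spot steps, binned as on the axis, 1 line per section. Arg1 starts at 186.5 and 69.3 in the outermost spots of the CC080F1 sections and is lower inward, Spp1 is lower inward in the first replicates, and Gpnmb shows no common slope.

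In the paired edgeR fit 0 of 7 genes passed, beside 0.871% of 14345 genes (125), with 2614 genes at an unadjusted p under 0.05. Arg1 had a log2 difference of 1.09 (SE 0.21, adjusted p = 0.0648) and Spp1 of 0.31 (SE 0.14, adjusted p = 0.296), and the other 5 lay between -0.09 and 0.10. Arg1 passed with an edge of 2 steps (1.20, adjusted p = 0.0429), without the muscle, skin and fat spots (1.10, adjusted p = 0.0454), with no filter on low counts (1.05, adjusted p = 0.00138) and without CC080F1 replicate 1 (1.10, adjusted p = 0.0352). Median UMIs per spot were lower at the edge, 18032 to 30120 against 33592 to 46146 in the interior. Tears and holes inside the tissue also counted as edge, and where tissue filled the capture area to its rim the true border lay outside it.

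Other genes of arginine metabolism and of myeloid and stromal cells were higher at the edge. Slc7a2 was 1.18 higher (SE 0.18, adjusted p = 0.0363) and Ass1 0.84 higher (SE 0.08, adjusted p = 0.00997), 2 of 6 tested genes of that list. Of the neutrophil list 3 of 5 were higher, with S100a8 at 1.94 (SE 0.23, adjusted p = 0.0204), and of the fibroblast list 3 of 8. Chil3, a chitinase-like gene of alternatively activated macrophages and monocytes, was 1.24 higher (SE 0.14, adjusted p = 0.0168), and of the 11 macrophage genes 0 passed. Without CC075F1 replicate 1 or without CC080F1 replicate 2 none of S100a8, Chil3, Slc7a2 and Ass1 passed (lowest adjusted p = 0.0582, for Ass1), and Slc7a2 also missed the threshold without CC075F1 replicate 2 (0.0602). Their part in the Arg1 values was not tested. The summed neutrophil list was 7.95 to 14.6 CPM at the edge against 3.97 to 5.91 CPM in the interior.

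Edge and hypoxia could be read together for Arg1 and Spp1. Arg1 was highest in spots that were both at the edge and in the upper hypoxia class in each section, at 28.7 and 33.4 CPM in CC075F1 and 115.6 and 191.2 CPM in CC080F1. It was lowest in interior spots of the lower class, at 16.0 and 7.51 CPM against 12.3 and 23.8 CPM. Interior hypoxic spots had 26.0 and 16.1 CPM in CC075F1 and 53.7 and 65.0 CPM in CC080F1, and edge spots of the lower class had 21.3 and 24.9 CPM against 23.0 and 74.4 CPM. Each of these was above the lower-class interior of its section. Spp1 at the edge of CC075F1 replicate 1 was lower in the upper class (119.7 CPM) than in the lower (175.4 CPM), while CC080F1 replicate 2 had 549.6 against 305.1 CPM.

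The strain-by-edge term passed for 0 of the 7 genes, beside 0.0837% of 14345 genes. Gpnmb had the smallest p, with a term of -0.48 (SE 0.13, adjusted p = 0.300), from edge-to-interior ratios of 0.823 and 0.914 in CC075F1, against 0.995 and 1.19 in CC080F1. For Arg1 the term was -0.73 (SE 0.32, adjusted p = 0.574), and without CC080F1 replicate 1 it was -1.08 and that of Gpnmb -0.63. The Spp1 term was -0.69 without CC080F1 replicate 2. Fits without a section leave 1 tumor in a strain, so only their effect sizes are given.

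Whether the 7 genes rose and fell together was described by rank correlations across the spots of a section with the rank of the spot's total UMIs removed. Spots of a section share a library and neighbors share tissue, so no p is given. The mean over the 21 pairs was 0.0427 and 0.0552 in CC075F1, against 0.0567 and 0.0973 in CC080F1, over 2709 to 3276 spots. After thinning as above the means were lower, at 0.0214 and 0.0323 against 0.0299 and 0.0501. How these means compare with those of other gene sets was not tested. Among 7083 other genes with at least 10 CPM in every section, 14 stood above Spp1 and 34 above Fn1 in mean correlation with Arg1. In the same order for Spp1, 2935 stood above Trem2 and 4870 above Fabp5. The 3 pairs among Spp1, Arg1 and Fn1 had the highest means. The next was Spp1 and Cd9, at 0.108 and positive in each section (0.0917 to 0.153), and in CC075F1 replicate 1 it was higher than Spp1 and Fn1 (0.153 against 0.0015). Trem2 had means of at most 0.0607 with the other genes.

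Spp1 and Arg1 had correlations of 0.155 and 0.198 in CC075F1, against 0.243 and 0.193 in CC080F1, the highest mean of the pairs (0.197). Spp1 and Fn1 had a mean of 0.180, from 0.0015 to 0.267, and Arg1 and Fn1 0.170, from 0.0543 to 0.258. Spp1 and Trem2 had a mean of -0.0113. With the rank of the hypoxia share removed as well, a setting added after the data were seen, the Spp1-Arg1 value in CC080F1 replicate 2 dropped from 0.193 to 0.052, whereas in CC075F1 replicate 1 it was 0.162 against 0.155. Removing the rank of the macrophage share left the 4-section mean of that pair at 0.197.

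The name of the set was checked against the macrophage list in the same way. Of the 7 genes Trem2 followed the list in each section, with correlations of 0.111 to 0.271, and Cd9 weakly, at 0.0558 to 0.0867. Spp1 ranged from -0.148 to 0.0383, Arg1 from -0.104 to 0.0567 and Gpnmb from -0.129 to 0.0221. As a yardstick, the macrophage genes themselves had means against the rest of their list from 0.0508 (Mertk) to 0.563 (C1qb), with a median of 0.356. The lowest means were those of sparse genes, Mertk at 1.97 to 4.98 CPM and Itgam (0.108) at 21.6 to 35.0 CPM. Arg1 and Gpnmb were also sparse, at 13.4 to 53.7 CPM, so the median is a high bar for them. Fn1 followed the summed fibroblast list instead, at 0.172 to 0.428. Col3a1 and Dcn made up most of that sum, with 1141 and 545 of 1865 CPM in CC075F1 replicate 1. In hypoxic spots, where Fn1 was higher, 5 of the 8 fibroblast genes were lower and only Dcn was called higher. The list median there, which weighs sparse genes alike, was -1.15, and 34.0% of all genes were called in either direction. The summed fibroblast list was higher in the upper class of CC075F1 replicate 1 (2044 against 1696 CPM). It was lower in CC075F1 replicate 2 (710.8 against 1550 CPM) and in CC080F1 (2552 against 2955 and 2410 against 2773 CPM). The part of fibroblasts in the Fn1 values was not tested. At the grain of these spots the 7 genes did not follow the macrophage list alike. Few counts also lower such correlations, so whether the genes share one distribution was not tested. In what cells each was made was not measured.

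**Figure D5:**
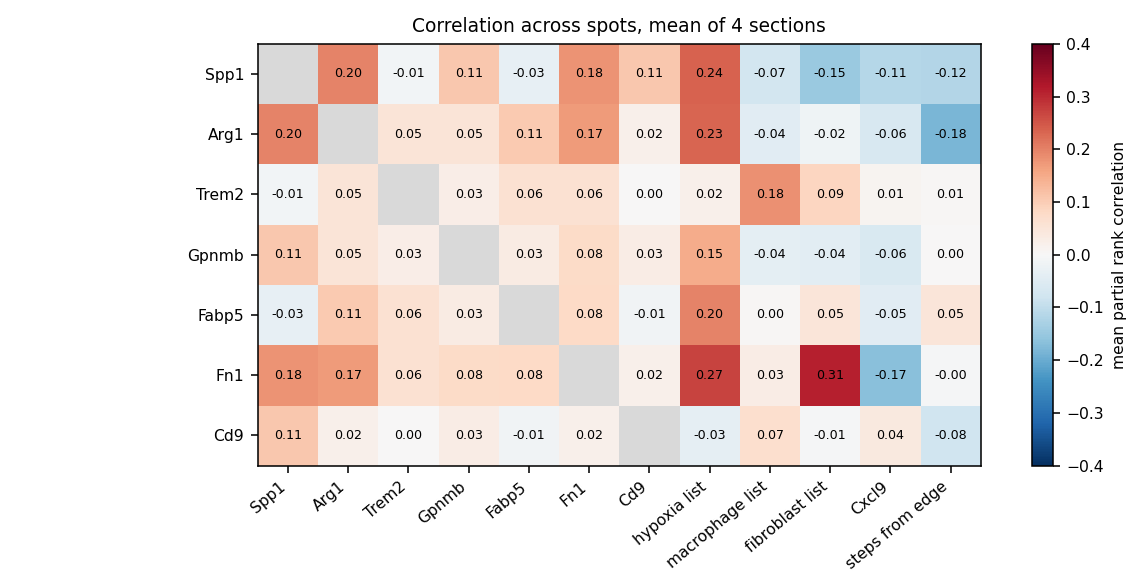
Partial rank correlation across spots, averaged over the 4 sections, of each gene (rows) with the other genes, with the summed hypoxia, macrophage and fibroblast lists, with Cxcl9 and with steps from the tissue edge (columns). Spp1-Arg1 (0.197) leads the pairs, Trem2 is the gene closest to the macrophage list (0.181) and Fn1 the one closest to the fibroblast list (0.311).

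With the hypoxia list Fn1 had correlations of 0.193 to 0.392, Arg1 of 0.0951 to 0.328, Fabp5 of 0.0427 to 0.329 and Gpnmb of 0.072 to 0.205. Spp1 had the widest spread, from -0.0634 in CC075F1 replicate 1 to 0.454. With Cxcl9, Fn1 ranged from -0.252 to -0.0696 and Spp1 from -0.247 to 0.103. With steps from the edge Arg1 ranged from -0.39 to -0.0761 and had the lowest mean of the 7 (-0.184), but in both first replicates Spp1 was lower (-0.156 against -0.0761 and -0.326 against -0.142), and in CC075F1 replicate 1 Cd9 was at -0.215 and Fn1 at 0.252.

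The genes most like each member, among 7084 genes with at least 10 CPM in every section, were named by the mean of the same correlation over 4 sections. Spp1 was closest to Ctsl (0.272), Lgals3 (0.269) and the glycolytic gene Pgk1 (0.268), and 30 genes stood above Arg1 in its order. Arg1 was closest to Lgals3 (0.314) and to the glycolytic genes Aldoa (0.267) and Ldha (0.245), with 14 genes above Spp1. Fn1 was closest to Dcn, a proteoglycan of fibroblasts (0.306), Aldoa (0.273) and Bnip3, one of the 10 hypoxia genes (0.253). Fabp5 was closest to Aldoa (0.206), Bnip3 (0.196) and the glycolytic gene Tpi1 (0.190).

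Trem2 had a different company: Apoe, the apolipoprotein it can bind (0.196), Lyz2, lysozyme of myeloid cells (0.161), and Ctsb, a lysosomal protease (0.144). Gpnmb was closest to Gas5 (0.171) and the ribosomal protein genes Rps7 (0.158) and Rpl23 (0.156), and Cd9 to Tmsb10 (0.115), Emp1 (0.112) and Ctla2a (0.109). Next in the order of Cd9 came Spp1 (0.108, with 3 genes above it), and in the order of Gpnmb 51 genes stood above Spp1 (0.107). The values for Gpnmb and Cd9 are low and lie close together, and no partner is singled out from them.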

How the data were processed

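Fresh-frozen sections of 4 MC38 tumors, 2 per strain, were profiled on 10x Visium. Per the file headers the authors ran Space Ranger 1.3.1, which aligned reads to the mouse reference on GRCm38 (mm10) with GENCODE annotation and deposited UMI counts per gene and spot, limited to spots under tissue, and the submitters' processing notes also name Seurat 5.0.1. Reads of both F1 crosses were aligned to the C57BL/6J sequence, so strain variants can lower a count. The deposited counts are raw UMIs with no normalization.

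The genes, the gene lists and the tests were chosen with earlier results of these data known. Counts were summed per section, or per section and class of spots (edge or interior, hypoxia class), and tested with edgeR 4.0.16 (R 4.3.3) by quasi-likelihood, TMM scaling and the default filter on low counts, with Benjamini-Hochberg adjustment over all genes tested and a threshold of 0.05; the section was a block in tests within sections. Strain tests used 2 against 2 tumors, which allows no exact permutation p under 0.333, and p-values measure the spread between these tumors. Totals of 82594649 to 146460975 UMIs per section put a count of 3 at 0.0205 to 0.0363 CPM. Edge spots lay within 3 steps of an empty position of the spot grid. The steps to the rim of the capture area were not counted. Spot correlations used CPM ranks. The 7 gene identifiers matched GENCODE vM21 (GRCm38), which gave their positions. The fits were tested on simulated counts. Named genes were the 7 members in full, up to 4 genes of a list by p, and the 3 genes most alike per member. Alternatives were DESeq2 1.42.0, library size alone, DESeq2 size factors, no filter, other edges and hypoxia classes, deeper spots, a replicate block and leaving out each section. Columns of unknown samples numbered 0.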

Additional observations from a re-analysis of the deposited data

How the results depend on the processing

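Of the main counts, those of hypoxic spots changed least: 4684 genes were called with all sections and 2061-4183 without any one of them, 4 to 6 of them among the 7 genes. Between strains 14 genes were called, 40 with library size alone, 194 by DESeq2, 480 with no filter and 11-207 without any one section; Arg1 was the 1 gene of the 7 called by DESeq2 and with no filter, and 0-1 were called without any one section. With the replicate block 287 genes were called between strains, 1 of them of the 7 (Arg1, -1.08, adjusted p = 0.0145). The labels do not say whether the replicate numbers mark a shared batch or day, and only 2 pairs exist. At the edge 125 genes were called, 202 within 2 steps, 39 within 5, 683 with no filter, 206 without muscle, skin and fat spots, 75 in spots of at least 10000 UMIs and 1-854 without any one section; of the 7, Arg1 was the 1 called within 2 steps, with no filter and without those spots, and 0-1 without any one section. The strain-by-edge term called 12 genes and 2-327 without any one section (0-2 of the 7), and the strain-by-hypoxia term 2, 0 with the hypoxia of neighbors and 2-51 without any one section (0-1 of the 7). Where a section was left out of a strain test the lone section was assumed to vary like the others. The cause of these changes was not tested.

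Differences near 0 changed sign, and the larger Spp1 strain difference (-0.42) also did when a section was left out. Between strains Fabp5 was -0.226 and Trem2 -0.0129 with library size alone, and Gpnmb 0.0175 with DESeq2 size factors, 0.0174 by DESeq2's test, 0.00292 without muscle, skin and fat spots and 0.0726 in the interior. At the edge Trem2 was -0.0429 within 5 steps and -0.0252 with no filter, and in hypoxic spots Cd9 was -0.0807 with library size alone. Without any one section the strain difference ranged from -1.16 to 0.50 for Spp1, -0.38 to 0.31 for Gpnmb and -0.31 to 0.50 for Fabp5, and the edge difference from -0.0501 to 0.0725 for Trem2. The strain-by-edge term ranged from -0.37 to 0.14 for Cd9, -0.21 to 0.17 for Fabp5 and -0.17 to 0.20 for Trem2. The strain-by-hypoxia term ranged from -0.51 to 0.0675 for Cd9, -0.34 to 0.0912 for Fabp5, -0.0119 to 0.33 for Fn1, -0.28 to 0.38 for Gpnmb, -1.08 to 0.58 for Spp1 and -0.16 to 0.0239 for Trem2.

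The mean pair correlation was 0.0630 over the 4 sections and 0.0334 after thinning to 10000 UMIs a spot. The share of spots with a UMI, as the median over the 7 genes, was 76.2% with at least 2 UMIs and 62.8% after thinning. Depth limits Arg1 and Gpnmb most, which had 0 UMIs in many spots.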
